A study of Homo sapiens with 3 samples.

Results

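Genes named as lincRNAs, antisense RNAs and snoRNA hosts were, in this series, nearly all measured in the control library alone. They were chosen by symbol: genes starting with LINC or SNHG, the genes GAS5 and NEAT1, and genes ending in -AS1, -AS2, -DT or -IT1. The rule found 187 of the 5932 genes in the deposited series table. They comprised 30 LINC genes, 8 SNHG genes, GAS5, NEAT1, 126 genes ending in -AS1, 5 ending in -AS2, 16 ending in -DT and 0 ending in -IT1. GPR84-AS1 counted as 2 of them because it has 2 gene identifiers. By annotation (GENCODE 29), SNHG32 and LINC02693 are typed as protein-coding and LINC01399 as a transcribed pseudogene. Of the 187 genes, 185 were listed for both deprived libraries, while LINC02432 and LINC00343 were listed for the glucose-deficient library only.

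The samples came from 95D, a human lung cancer cell line, labelled wild type in every group. There were 3 libraries, 1 from control culture, 1 from glucose-deficient culture and 1 from glutamine-deficient culture. Cells were seeded for 24 h and then cultured for 48 h in all 3 groups. In the deprived groups the nutrient was withheld in a medium that held 10% dialyzed serum. No serum is recorded for the control medium, so a difference in serum could not be told apart from nutrient withdrawal. The protocols describe, for all 3, RNA captured from lysate with biotinylated full-length DAMER, a long non-coding RNA made by in vitro transcription. The sample titles name plain RNA sequencing instead, so whether the control library was captured in the same way was not tested. The design addressed which RNAs associate with DAMER in nutrient-deprived cells. With 1 library per condition no test between conditions was possible, and every interval given below covers counting error only.

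Small nucleolar RNA host genes are transcribed into RNAs whose exons are often spliced, exported and degraded, while short stable RNAs are processed from their introns. These snoRNAs guide the methylation, pseudouridylation or cleavage of ribosomal RNA precursors. NEAT1 is the nuclear RNA scaffold of paraspeckles, bodies in which RNA-binding proteins such as NONO and SFPQ assemble. Antisense genes are named for the gene they lie against on the other strand, divergent (-DT) genes for the neighbour whose promoter they share, and LINC genes carry a number because they lie between other genes.

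The control library held 3781861 recovered fragments, that of glucose-deficient cells 18775814 and that of glutamine-deficient cells 18301581. The mRNA of ATF4, the transcription factor of the integrated stress response, had 237 RPM (fragments per 1e6 of the library) in the control. It had 998517 RPM after glucose withdrawal and 998557 RPM after glutamine withdrawal. What was left outside ATF4, its pseudogenes and RNF157, whose listed region is also that of ATF4P3, was 12936 fragments (0.0689%) and 14450 fragments (0.0790%). In the control 99.97% of fragments lay outside them. A count of 0 allows a level of up to 0.793 RPM in the control, against 0.160 RPM with glucose withheld and 0.164 RPM with glutamine withheld. No transcript of the 186 members with annotated transcripts had a blastn match to the ATF4 mRNA.

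Control levels of the 185 members with control fragments ran from 3.44 to 1496 RPM, and the median over all 187 was 8.46 RPM. LINC02432 and LINC00343 had 0 control fragments, and their listed 0.132 RPM is the offset of 0.5 fragment. There were 17 members at 50 RPM or more and 6 at 100 RPM or more. RPM is not divided by length and the lengths of the listed regions are not given, so these levels rank fragments and not molecules. The highest was NEAT1, followed by SNHG3, MDC1-AS1, LINC02067, MIF-AS1 and ZBTB47-AS1. Median control levels were 26.4 RPM for the 9 snoRNA hosts, 8.13 RPM for the LINC genes, 8.46 RPM for the antisense genes and 7.34 RPM for the divergent genes.

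**Figure D1:**
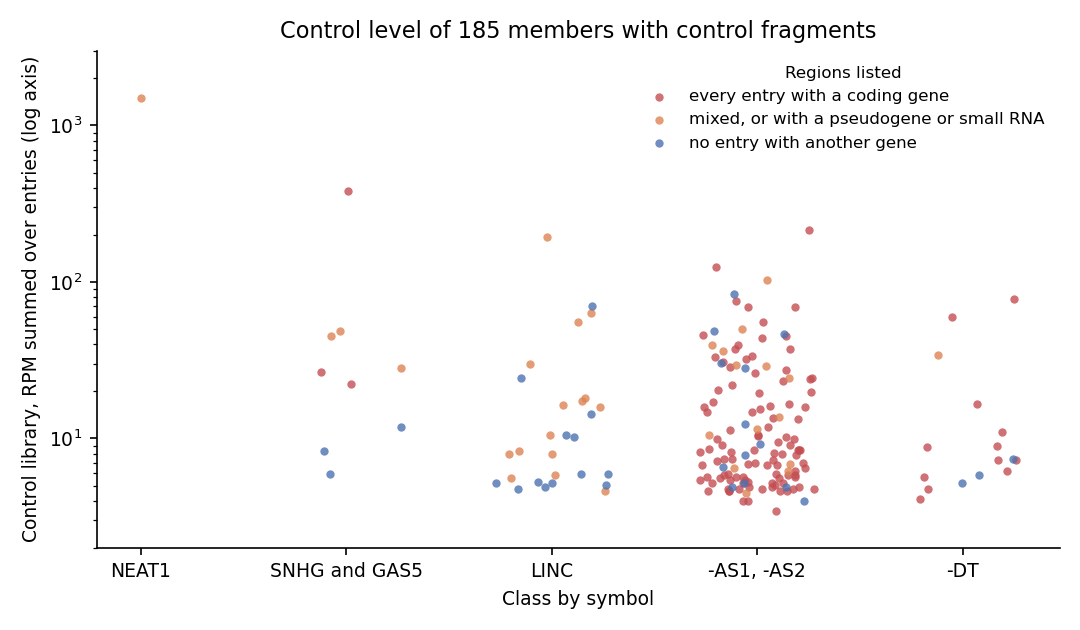
Control level in RPM (log axis) of the 185 members with control fragments, by symbol class; each point is 1 gene, spread sideways for legibility, and its colour shows whether its listed regions are also listed under another gene. NEAT1 stands at 1496 RPM and SNHG3 at 378 RPM, while most antisense and divergent points are those whose every region is also listed under a coding gene.

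Each entry of the table pairs a gene with a region, and one region can be entered under several genes. The regions have no coordinates. An entry was therefore counted as shared where another listed gene, whose body overlaps the member in GENCODE 29 (GRCh38), had an entry with the same values in the control and the deprived library. Of the members' 302 entries for the glucose-deficient library, 179 (59.3%) were shared with a protein-coding gene. These held 47.0% of the members' summed control signal of 5463 RPM. A further 28 entries were shared with a pseudogene and no coding gene, 4 with small RNA genes only and 6 with other non-coding genes only. The remaining 85 entries (28.1%) were not shared.

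By gene, 119 of 187 members had every entry shared with a coding gene and 34 had no shared entry. The 34 include LINC03009, which has no GENCODE 29 coordinates, so its sharing could not be assessed. In 172 of the 179 entries shared with a coding gene, the coding partner lay on the opposite strand. The use of strand in counting is not stated, so fragments from the member and from such a partner cannot be told apart. Among the 368 other listed genes of long non-coding types, 423 of 615 entries (68.8%) were shared with a coding gene. Of the 85 unshared entries, 51 had the same values as some gene without GENCODE 29 coordinates. All 51 were at or below 12.0 RPM and their sharing could not be assessed.

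**Figure D2:**
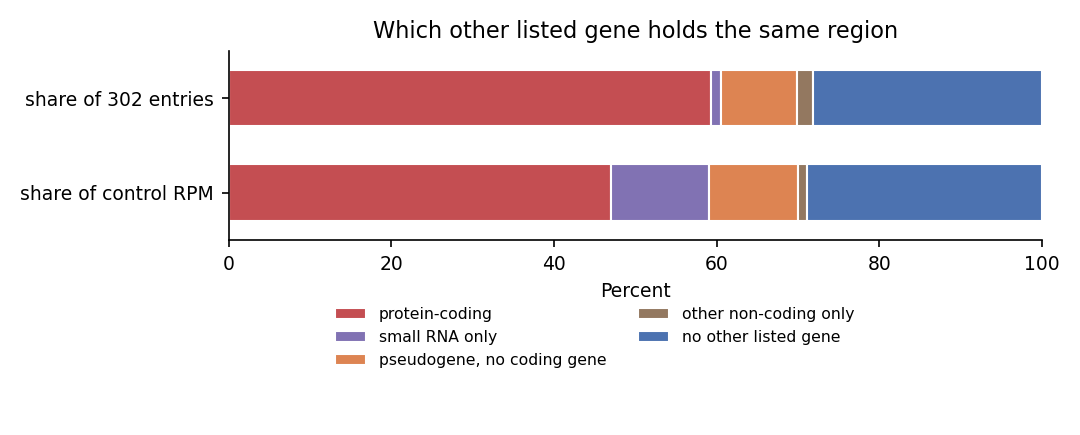
Share of the members' 302 entries for the glucose-deficient library (upper bar) and of their summed control RPM (lower bar), in percent, by the kind of other listed gene with the same region. Protein-coding genes share 59.3% of entries and 47.0% of RPM, and small RNAs alone share few entries but 12.0% of RPM, most of it in 1 region of NEAT1.

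Among the snoRNA hosts, SNHG3 led with 378 RPM in the control, from 1430 fragments. Both of its regions were also those of a snoRNA it carries. The region of 203 RPM was shared with SNORA73B and the region of 175 RPM with SNORA73A, and both were shared with RCC1, the exchange factor of the GTPase RAN, whose gene overlaps SNHG3 on the same strand. RCC1 had 6 regions and 448 RPM in all. The sequences of these snoRNAs and of those at SNHG29 and SNHG1, taken from GENCODE 29 transcripts (GRCh38), are shown because they are short RNAs listed with the hosts' regions and carry boxes that a search of letters found. SCARNA17, listed with the region of SNHG22, had neither and is not shown.
SNORA73A: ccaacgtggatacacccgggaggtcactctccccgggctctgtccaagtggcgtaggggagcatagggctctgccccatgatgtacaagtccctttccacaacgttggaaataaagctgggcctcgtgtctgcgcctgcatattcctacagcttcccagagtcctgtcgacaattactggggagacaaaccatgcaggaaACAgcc
SNORA73B: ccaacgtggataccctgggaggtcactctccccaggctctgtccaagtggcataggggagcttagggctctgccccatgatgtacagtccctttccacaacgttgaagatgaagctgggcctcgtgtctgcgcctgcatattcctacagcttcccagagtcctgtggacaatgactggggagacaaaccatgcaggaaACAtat
SNORD49B: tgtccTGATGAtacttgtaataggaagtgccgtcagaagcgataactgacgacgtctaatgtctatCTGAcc
SNORD27: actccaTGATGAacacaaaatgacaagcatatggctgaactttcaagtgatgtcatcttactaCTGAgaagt
Capitals mark ACA at 3 bases before the 3′ end, the tail of box H/ACA snoRNAs, and TGATGA near the 5′ end with CTGA near the 3′ end, the boxes of C/D snoRNAs. ACA at that place was found in 30.6% of 1004 annotated snoRNA and scaRNA transcripts, and the pair of C and D boxes in 22.4%, on the transcript strand. SNORA73A (chr1:28507366-28507571, plus strand, 206 nt) and SNORA73B (chr1:28508559-28508762, plus strand, 204 nt) were identical at 192 positions, with 12 mismatches and 2 gaps, or 93.2%. Reads that fall in such stretches can match both copies, so how the 378 RPM divides between them is uncertain.

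The other 8 hosts were lower in the control, from SNHG29 at 48.7 RPM to SNHG17 at 5.95 RPM. SNHG29 had its highest region, 30.0 RPM, in common with the C/D snoRNA SNORD49B (chr17:16439505-16439576, plus strand, 72 nt). Another of its 3 regions, at 13.4 RPM, was shared with the coding gene LRRC75A. SNHG1 held 45.3 RPM in 2 regions, of which 39.3 RPM was not shared and 6.08 RPM was listed with SNORD27 (chr11:62855012-62855083, minus strand, 72 nt). SNHG22, at 22.3 RPM, had its 1 region in common with SCARNA17, a guide RNA of Cajal bodies, and with an unnamed coding gene on the opposite strand. SNHG32 held 28.0 RPM, SNHG16 26.4 RPM and SNHG15 11.8 RPM, and GAS5, a host whose mature RNA is known as a target of nonsense-mediated decay, held 8.33 RPM in 1 unshared region. GENCODE 29 places 26 snoRNAs or scaRNAs inside 9 members on the same strand, 8 of them SNHG genes. Of these 26, 6 were listed, and they lay in 4 members.

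NEAT1 (chr11:65422774-65445540, plus strand, 22767 bases) had 15 regions and 1496 RPM in the control, from 5649.5 fragments. Its highest region held 611 RPM, 40.8% of the gene, and was also entered under 3 short genes that GENCODE 29 types as misc_RNA. These lie near the 5′ end of NEAT1, at bases 500 to 619, 865 to 969 and 1187 to 1345 of the gene. The other 14 regions, not shared with another listed gene, ran from 36.5 to 119 RPM. In the glucose-deficient library the 15 regions held 13 fragments, 7 of them in the highest region, 4 in a region of 45.2 RPM and 1 each in regions of 94.4 and 38.3 RPM. In the glutamine-deficient library all 15 regions had 0 fragments. The glucose-deficient fragments thus lay in 4 of 15 regions, with the most in the region that was highest in the control. Whether their spread over the regions differed from that of the control was not tested, with 13 fragments in all.

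**Figure D3:**
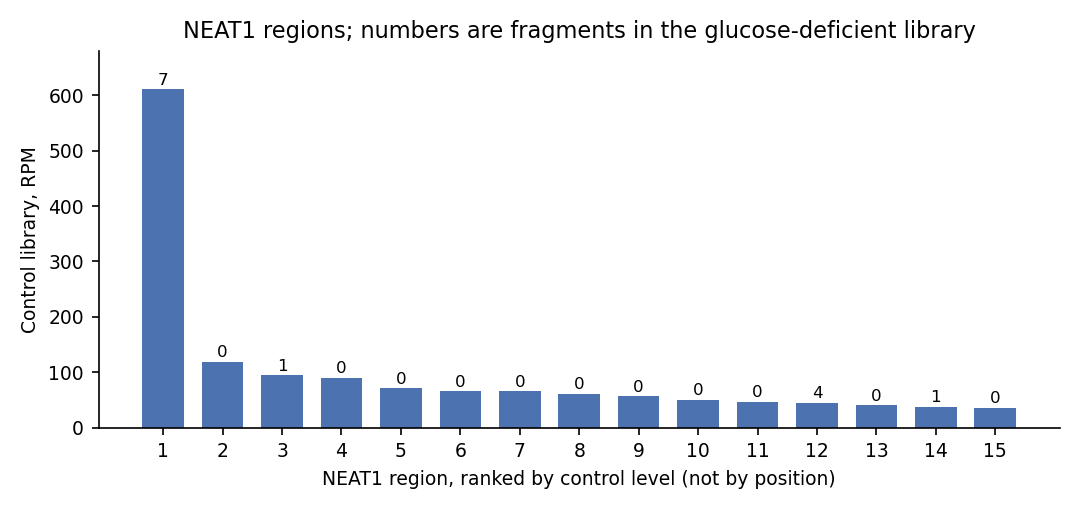
Control RPM of the 15 listed regions of NEAT1, ranked by level and not by position, with the number of fragments in the glucose-deficient library above each bar. The first bar, 611 RPM, holds 7 of the 13 fragments, and all 15 regions had 0 fragments in the glutamine-deficient library.

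None of the 30 LINC genes had a region in common with a coding gene, and 14 had a region in common with a pseudogene. Over all classes, 33 entries of 25 members were listed with 26 pseudogenes and held 800 RPM, 14.6% of the members' control signal. A pseudogene is a decayed copy of another gene, often close enough in sequence that reads from the parent's mRNA can match it. Of the 26 pseudogenes, 18 aligned to the gene they are named after, at 82.9% to 100% identity with a median of 96.5%, and 16 of them at 90% or more. At the most similar of these copies, fragments of parent, pseudogene and member cannot be told apart. For the other 8 pseudogenes no parent was aligned.

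LINC02067, at 193 RPM the highest LINC gene, had its 1 region in common with RPL23AP42, a copy of the ribosomal protein gene RPL23A. The 2 were 99.6% identical over 471 bases. OOEP-AS1, at 69.1 RPM, had its 1 region in common with RPL39P3, which equals 156 bases of the mRNA of RPL39, a protein of the large ribosomal subunit. An 80-base stretch of the first pair and all of RPL39P3, from GENCODE 29 transcripts, show how little separates copy and parent.
RPL23AP42: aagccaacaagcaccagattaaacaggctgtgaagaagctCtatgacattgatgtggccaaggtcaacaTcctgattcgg
RPL23A: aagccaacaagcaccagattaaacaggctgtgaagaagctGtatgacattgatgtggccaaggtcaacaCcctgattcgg
RPL39P3: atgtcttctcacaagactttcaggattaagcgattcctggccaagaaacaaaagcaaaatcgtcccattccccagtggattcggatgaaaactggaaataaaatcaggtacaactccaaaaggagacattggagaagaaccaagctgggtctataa
Capitals mark the 2 bases that differ between RPL23AP42 and RPL23A. RPL39P3 has no capitals because it has 0 mismatches to RPL39. Neither RPL23A nor RPL39 had an entry of its own among those analysed, so their levels cannot be set beside the copies.

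For other members the parent was listed. KHDC1-AS1, at 75.1 RPM, was listed with EIF3EP1, which is 93.5% identical to EIF3E, a subunit of a translation initiation factor that held 32.5 RPM in its own entries. LINC00886, at 55.7 RPM, was listed with PA2G4P4, which is 97.3% identical to PA2G4, at 69.0 RPM. TPT1-AS1, at 50.2 RPM, was listed with RCN1P2, which is 98.9% identical to RCN1, a calcium-binding protein of the endoplasmic reticulum, at 32.4 RPM. Every region of these 3 members was listed with the pseudogene, so their values do not show that the member itself was transcribed. LINC01411 (70.1 RPM, 9 regions) had 0 shared entries, each at or below 12.0 RPM, and LINC01122 (63.3 RPM, 3 regions) was listed throughout with an unnamed pseudogene.

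Of the 147 antisense and divergent members, 110 had the gene they are named for in the table, on the opposite strand in all 110. In 86 pairs the member had at least 1 region in common with that gene, and in 82 pairs every region of the member was such a region. The named gene held more control signal than the member in 65 pairs, the same in 34 and less in 11. The median ratio of named gene to member was 1.81, with a range of 0.247 to 37.4. In the 82 pairs the named gene cannot hold less than the member, since a gene's value is the sum of its regions. The counts and ratios of those pairs therefore do not compare independent levels. Most members of these pairs thus had no region of their own in the table.

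MDC1-AS1 (chr6:30703067-30713184, plus strand) held 213 RPM in 2 regions, and MDC1, a mediator of the DNA damage checkpoint, held the same 213 RPM in the same 2 regions. MIF-AS1 and MIF, a secreted cytokine, likewise both held 125 RPM in 2 shared regions, and PPP1R15B-AS1 and PPP1R15B, a regulatory subunit of the phosphatase of the translation factor eIF2α, both held 55.7 RPM in 4. KHDC1-AS1 and OOEP-AS1 equalled KHDC1 and OOEP as well, at 75.1 and 69.1 RPM, in the regions listed with the pseudogenes above. All 5 regions of NOP14-AS1 (69.4 RPM) were among the 10 of NOP14 (111 RPM), a factor of small ribosomal subunit assembly.

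Some members of high level did not share a region with the gene they are named for. VIM-AS1 (chr10:17214239-17229985, minus strand) held 84.1 RPM in 1 region, and VIM, the intermediate filament protein vimentin, held 77.7 RPM in 4 other regions although the gene bodies overlap. Such overlap with 0 regions in common was seen in 17 pairs. TPT1-AS1 and TPT1, at 50.2 and 55.0 RPM, were another of these. LIPE-AS1, a further pair named here after its values were seen, held 39.4 RPM against 21.9 RPM for LIPE. RSL1D1-DT (59.9 RPM) does not overlap RSL1D1 (139 RPM), and its 5 regions were those of GSPT1, the translation termination factor eRF3a. MVP-DT (78.3 RPM) had both its regions in common with the zinc finger gene MAZ. ZBTB47-AS1 (102 RPM, 9 regions) shared 4 regions with NKTR, and the other 5 regions were not shared. MVP and ZBTB47 themselves had no entry among those analysed.

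**Figure D4:**
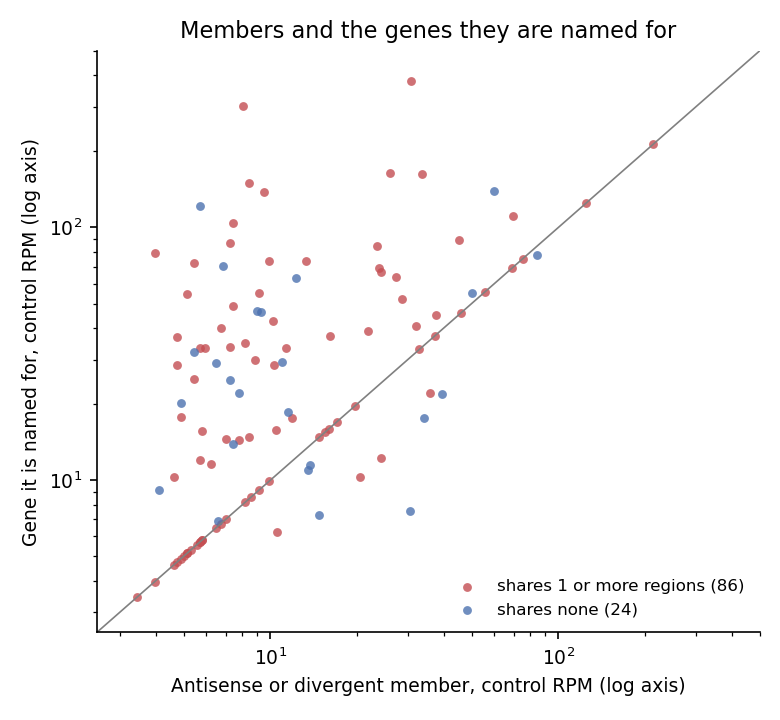
Control RPM of 110 antisense or divergent members (horizontal, log axis) and of the gene each is named for (vertical, log axis); the line marks equal values and colour marks pairs with at least 1 region in common. The 34 pairs on the line hold equal values, 65 lie above it and 11 below. A pair cannot lie below the line where every region of the member is also one of the named gene.

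In the glucose-deficient library 185 of 187 members were at least 2-fold lower than in the control on log2(RPM + 1), where 99.9% of all genes tested were lower. The median difference of the members was -3.20 on that log2 scale, against -3.92 over all genes. The 2 exceptions were higher, where 0.118% of all genes were higher. In the glutamine-deficient library 185 of 185 members were lower, where 99.9% of all genes were lower, with a median of -3.22 against -3.93. There 0 members were higher, against 0.0675% of all genes. At 0 fragments, as for most members and most listed genes, this log2 difference is set by the control level alone. The gap between the medians of members and of all genes therefore does not measure a smaller decrease. The members' direction was thus that of nearly every listed gene, in libraries where ATF4 held nearly all fragments. The share of fragments outside the ATF4 family was itself 1451-fold smaller than in the control with glucose withheld and 1266-fold with glutamine withheld. Less of an RNA in the lysate, less of it captured and a smaller share of the library beside ATF4 cannot be told apart here. Nor can a control library that was not captured in the same way.

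LINC02432 (chr4:141319450-141332618, minus strand) had 0 fragments in the control and 106 fragments, 5.67 RPM, in the glucose-deficient library. LINC00343 (chr13:105704280-105764440, plus strand) had 0 in the control and 33 fragments, 1.78 RPM. Against a floor of 3 control fragments they were at least 7.12-fold and at least 2.22-fold higher. The counting interval of the ratio began at 5.69 for LINC02432 and at 1.70 for LINC00343, so the latter did not exceed 2-fold over its whole interval. Each rests on 1 region, not shared with another listed gene, and has no entry for the glutamine-deficient library. Both passed the minimum of 1 RPM through the glucose-deficient library alone, so they could not have been called lower. A cause was not tested.

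Fragments in the glucose-deficient library were found for 14 of 187 members (7.49%), against 9.04% of all listed genes. Only 3 members had 3 fragments or more, NEAT1 and the 2 LINC genes that were higher, against 1.13% of all genes. NEAT1 went from 1496 to 1.09 RPM, values that include the offset of each of its 15 regions. By its 13 fragments, without the offset, it was 2158-fold lower (95% counting interval 1261 to 4055). SNHG3 went from 378 RPM to 1 fragment, 7100-fold lower (1272 to 280610), and that fragment was in the region of SNORA73A. MDC1-AS1 likewise kept 1 fragment, in a region of MDC1, and was 3997-fold lower (715 to 158050). The width of the last 2 intervals is that of a single fragment. Each of these intervals includes 1451-fold, by which the share outside the ATF4 family was smaller than in the control.

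The other 9 members with glucose-deficient fragments had 1 or 2. ZBTB47-AS1, RSL1D1-DT and SDCBP2-AS1 had 2 each, and LINC01122, LIPE-AS1, SPTBN1-AS2, RCC2-AS1, SLC16A1-AS1 and DAP-DT had 1. The fragments of RSL1D1-DT were in a region of GSPT1, those of SDCBP2-AS1 in a region of FKBP1A, the binding protein of the drug FK506, and those of SPTBN1-AS2, RCC2-AS1 and DAP-DT in regions of SPTBN1, RCC2 and DAP. The fragments of ZBTB47-AS1, LIPE-AS1 and SLC16A1-AS1 fell in regions not shared with another listed gene. Among the snoRNA hosts, 8 of 9 had 0 fragments, where 9.04% of all listed genes had 1 or more. Per library total, they were lower by at least 36.4-fold for SNHG17 to at least 302-fold for SNHG29, bounds that follow from their control levels. LINC02067, MIF-AS1 and VIM-AS1, also at 0 fragments, were at least 1206-fold, 778-fold and 525-fold lower. All these bounds lie below 1451-fold, by which the share outside the ATF4 family was smaller than in the control. They therefore show no decrease beyond that of this share.

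In the glutamine-deficient library 0 of 185 members had a fragment, against 0.776% of all listed genes with 1 or more and 0.219% with 3 or more. NEAT1 was at least 9113-fold lower than in the control, SNHG3 at least 2307-fold, MDC1-AS1 at least 1299-fold and LINC02067 at least 1175-fold. The RPM listed for them, such as 0.410 for NEAT1, is the added offset summed over regions. All these bounds use 3 fragments and leave out the counting error of the control. They are per library total, and the share outside the ATF4 family was itself 1266-fold smaller than in the control.

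The fragments left in a deprived library were also set against the control fragments of the same regions, without scaling by library total. The 185 members with control fragments had 27 fragments in the glucose-deficient library for 20493.5 in the control, or 1.32 per 1000 (0.868 to 1.92). Other listed genes outside the ATF4 family had 1.17 per 1000 (1.09 to 1.24), inside the members' interval. NEAT1 had 2.30 per 1000 (1.22 to 3.94), and the members without it 0.943 (0.515 to 1.58). Regions shared with a coding gene had 0.937 per 1000 (0.428 to 1.78) and the others 1.65 (0.980 to 2.61), with intervals that overlap. The others include every region of NEAT1, which held 13 of their 18 fragments. In the glutamine-deficient library the members had 0 per 1000, with an upper limit of 0.180, and NEAT1 0 with an upper limit of 0.653. Other listed genes there had 0.178 per 1000 (0.150 to 0.209), and 0.0628 (0.0458 to 0.0841) without mitochondrial genes.

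**Figure D5:**
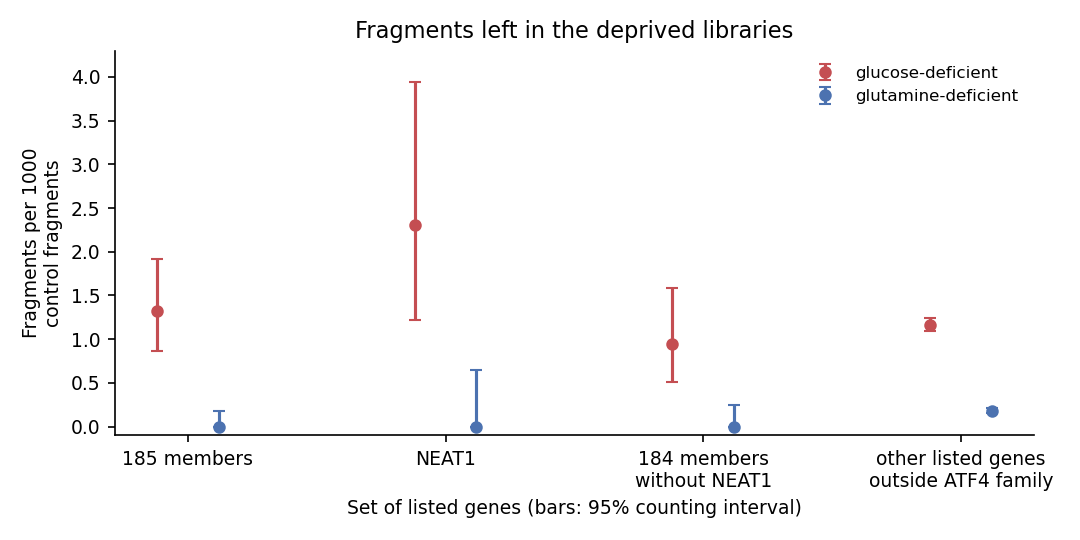
Fragments in each deprived library per 1000 control fragments of the same regions, with 95% counting intervals, for the 185 members with control fragments, NEAT1, the members without NEAT1, and other listed genes outside the ATF4 family. In the glucose-deficient library the members' 1.32 and the other genes' 1.17 overlap, and in the glutamine-deficient library the members stand at 0.

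Scaled to the fragments outside the ATF4 family, the picture of single members changed, since 179 of 187 members would have had less than 1 fragment in the glucose-deficient library if kept in proportion to the control. NEAT1 would have had 19.3 fragments where 13 were counted, a ratio of 0.673 to the control (0.358 to 1.15), and SNHG3 4.89 where 1 was counted, 0.204 (0.00517 to 1.14). Both intervals include 1, so on this scale neither difference exceeded counting error. MDC1-AS1 had a ratio of 0.363 (0.00918 to 2.03). The other 9 members with 1 or 2 fragments, lower on the scale of all fragments, had ratios above 1 on this scale, from 1.23 for LINC01122 to 8.86 for DAP-DT, each with an interval that includes 1. Over the whole counting interval, 2 members were 2-fold higher, LINC02432 and LINC00343, and 0 were 2-fold lower. Those 2 had 0 control fragments and reached 1 RPM only in this library, so they could not have been lower. The share of all listed genes on this scale is not given, so whether these counts are particular to the members was not tested. In the glutamine-deficient library 176 of 185 members would have had less than 1 fragment. NEAT1 would have had 21.6 where 0 were counted, an upper limit of 0.171 on its ratio, and it was the 1 member lower than 2-fold over its whole interval. SNHG3 would have had 5.47 where 0 were counted, with an upper limit of 0.676. NEAT1 had the most control fragments of the members, so it had the most room to be found lower. Other listed genes held 144.5 of the 14450 fragments with glutamine withheld and 948 of the 12936 with glucose withheld. In the control they held 813322 of 3781861. Listed genes in general thus kept less than this scale expects, and a low ratio is not shown to be particular to NEAT1. Whether NEAT1 differed between the deprived libraries on this scale was not tested.

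Genes that work with these RNAs were followed as lists, with all listed genes of each lower than the control in both deprived libraries, as were 99.9% of all genes. Of 16 paraspeckle proteins 15 were listed, with a median of -6.00 in the glucose-deficient library, against -3.92 over all genes. TAF15 (231 RPM in the control) and HNRNPH3 (219 RPM) kept 0 fragments in the glucose-deficient library and NONO (136 RPM) 1. Over the 15 proteins 10 had 0 fragments there and 14 in the glutamine-deficient library, where 9.04% and 0.776% of all listed genes had 1 or more. The median control level of the 15 was 69.9 RPM. With most genes of these lists at 0 fragments, the list medians mainly restate control levels and do not measure a stronger decrease.

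Of 35 other snoRNA hosts, most of them genes of the translation machinery, 32 were listed, with a glucose-deficient median of -5.27. Their median control level was 42.4 RPM, and the median over all genes was -3.92. The highest in the control were EEF2 (662 RPM), NCL (515 RPM), RACK1 (331 RPM) and HSPA8 (152 RPM). They kept 6, 3, 3 and 0 glucose-deficient fragments, and 25 of the 32 hosts had 0, where 9.04% of all listed genes had 1 or more. All 32 had 0 in the glutamine-deficient library, as the 9 hosts among the members did. Of 16 snoRNP proteins, which bind and assemble snoRNAs, 11 were listed with a glucose-deficient median of -5.34, led by NOLC1 (164 RPM, 3 fragments), FBL (111 RPM, 0), NOP58 (98.2 RPM, 1) and ZNHIT6 (81.3 RPM, 1). Of 14 nonsense-mediated decay factors 11 were listed with a glucose-deficient median of -4.72, among them UPF3B (101 RPM), SMG1 (70.3 RPM) and CASC3 (59.8 RPM), each at 0 fragments. The median control levels of the snoRNP proteins and decay factors were 42.7 and 26.8 RPM. All 11 snoRNP proteins and all 11 decay factors had 0 fragments in the glutamine-deficient library, where 0.776% of all listed genes had 1 or more.

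Markers of the labelled cell type were thin in the table, which limits a check of it. Of 7 epithelial and lung cancer line markers 2 were listed, VIM at 77.7 RPM and KRT8 at 6.48 RPM in the control, both with 0 fragments in the deprived libraries. Of 4 leukocyte markers CSF1R was listed (10.3 RPM in the control) and of 3 neuronal markers NCAM1 (16.8 RPM, 1 glucose-deficient fragment). Of the fibroblast, endothelial and erythroid markers 0 were listed.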

How the data were processed

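The authors deposited RPM values, per the file headers. HISAT2 2.0.5 and the build hg38 are named in the submitters' processing notes. The choice of regions, the annotation and the use of strand were not given in the sources consulted. The RPM values rise in fixed steps from an offset of 0.5 fragment per region, so fragments were recovered to the nearest 0.5. Of the recovered values 63.3% (control), 99.96% (glucose-deficient) and 99.98% (glutamine-deficient) were whole. The file gives no symbol for the members' 302 entries, so identifiers were matched to a gene name table. In each block 691 entries name no gene and were left out. The glutamine column was mapped through the sample's own deposited file, which equals it, since that sample's label points to the glucose column.

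A gene's value is the sum of its regions. Differences are of log2(RPM + 1) for genes reaching 1 RPM in at least 1 library, which understates those of low genes, and 2-fold was the threshold. Folds and ratios with intervals are of fragments per library total, without the offset, with exact binomial or Poisson intervals at 95%. No p-value was computed. Members and lists were chosen with earlier results of these data known. Named were the 15 highest members in the control, all snoRNA hosts, members with 5 or more deprived fragments, higher members, members of 1 block, the 10 highest antisense or divergent members, and up to 4 genes per list, of which 2 are not reported here. SDCBP2-AS1, LIPE-AS1, SPTBN1-AS2, RCC2-AS1, SLC16A1-AS1, DAP-DT, TPT1-AS1 and LINC00886 were named after their values were seen. Pseudogenes were aligned with blastn 2.17.0 and the snoRNA pair with Biopython 1.88. Python 3.11.15, numpy 2.4.6, pandas 2.3.3, scipy 1.17.1 and matplotlib 3.10.9 were used, and the steps were tested on simulated data.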

Additional observations from a re-analysis of the deposited data

How the results depend on the processing

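The direction of the members' median did not change under any alternative run, from -6.08 to -1.42 with glucose withheld and from -6.07 to -1.44 with glutamine withheld. The 2 higher members of the glucose-deficient library became 1 with a pseudocount of 5 RPM, 1 with a minimum of 5 RPM, 8 with scaling by fragments outside the ATF4 family, 10 with median-of-ratios scaling, and 1 where the whole counting interval on all fragments had to pass. The last of these, and the interval counts below, were chosen after seeing the data. Shares of all listed genes under the alternative scalings are not given. Whether 8 or 10 higher is particular to the members was therefore not tested. Leaving out members whose every region is also listed under a coding gene left 66 lower members of 68 with glucose withheld and 66 of 66 with glutamine withheld, since fewer genes were tested. Where the whole interval outside the ATF4 family had to pass, 0 members were lower with glucose withheld and 1 with glutamine withheld. That 1 was NEAT1, the member with the most control fragments. A member at 0 fragments has a lower point value by construction under every scaling, and only the interval counts take the few expected fragments into account. Members with fragments in the glucose-deficient library were 14 at 1 or more, 6 at 2 or more and 3 at 3 or more. No paired analysis was possible because each condition has 1 library, and for the same reason no replicate could be left out.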
